A study of Mus musculus with 16 samples.

Results

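The genes described here are the matrix metalloproteases (Mmp), the ADAM and ADAMTS metalloproteases and the tissue inhibitors of metalloproteases (Timp). All genes with a single symbol that joins Mmp, Timp, Adam or Adamts to a number were taken, and for each the probe set that read highest on average was used. This gave 65 of the 18193 genes on the array: 18 Mmp, 4 Timp, 28 Adam and 15 Adamts genes.

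The RNA came from 16 liver samples of male C3H/HeJ mice, 1 Affymetrix array per sample. According to the series design, every mouse received diethylnitrosamine, a liver carcinogen, as 1 intraperitoneal dose of 10 or 90 µg per g of body weight at an age of 2 or 6 weeks, so control livers also came from carcinogen-treated mice. The groups were 7 Ctnnb1-mutated tumours and 3 non-tumour livers under phenobarbital (numbered 4 to 6), and 3 Ha-ras-mutated tumours and 3 non-tumour livers without it. Phenobarbital, a tumour promoter in mouse liver, was given at 0.05%. The series design puts it in the diet for 28 to 36 weeks from 2 weeks after the injection, whereas the sample labels put it in drinking water for 27 weeks and another protocol text gives 28 days. The labels do not give each animal's age at sampling, dose, or whether samples of a group came from separate animals, so that p-values measure only the spread between these samples. Each tumour type came under 1 treatment, so mutation and phenobarbital cannot be told apart when the tumours are set against each other.

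Matrix metalloproteases are zinc enzymes that cut collagens, elastin, proteoglycans and many non-matrix proteins. Most are secreted as inactive precursors, some are anchored in the membrane, and TIMPs block the active enzymes. ADAMs are membrane proteins, several of which release growth factors, cytokines and receptors from the cell surface, and ADAMTS enzymes are secreted proteases that cut proteoglycans or process procollagen. In liver they are known for the turnover of scar matrix and for tissue repair, and stellate cells, macrophages and endothelial cells are well-known sources besides hepatocytes.

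The 2 genes with the widest range over the 16 arrays among the 65, Mmp13 and Mmp12, are neighbours. In the RefSeq annotation they open a run of 10 protein-coding Mmp genes on mouse chromosome 9, of which 9 were measured (Mmp13, Mmp12, Mmp1b, Mmp3, Mmp1a, Mmp10, Mmp8, Mmp20 and Mmp7). Because both moved between groups, the 250 bases before their start sites are shown (RefSeq, GRCm38.p6, plus strand, 5′ to 3′), with a match to TGANTCA, the letters bound by AP-1 factors, in capitals. The Mmp13 stretch lies at chr9:7272264-7272513 and its match begins 35 bases before the start. The Mmp12 stretch belongs to the second of the start sites in the table, lies at chr9:7347124-7347373, and its match begins 44 bases before that start.
Mmp13: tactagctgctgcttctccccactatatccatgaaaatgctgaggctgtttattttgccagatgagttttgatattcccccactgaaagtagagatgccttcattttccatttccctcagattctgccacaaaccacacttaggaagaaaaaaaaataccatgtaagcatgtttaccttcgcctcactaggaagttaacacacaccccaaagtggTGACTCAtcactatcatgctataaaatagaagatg
Mmp12: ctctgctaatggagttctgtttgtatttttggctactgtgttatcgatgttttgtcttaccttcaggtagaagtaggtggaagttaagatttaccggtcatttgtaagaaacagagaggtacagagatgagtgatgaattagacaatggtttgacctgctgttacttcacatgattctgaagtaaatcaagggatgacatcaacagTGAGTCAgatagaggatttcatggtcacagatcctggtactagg
The first Mmp12 start in the table had no match in its 250 upstream bases. In windows of 300 bases (250 before and 50 after a start, TGANTCA searched on both strands, which gives the same places because the letters read alike on either), 8.97% of 27025 genes had a match. Among the genes described here 37 had a window in the table and 11 of these had a match, of which 8 were among the 9 measured genes of the chromosome 9 run. CTTTGAT, the letters bound by TCF factors, searched on both strands, was found in 4.29% of genes and in 1 of the 37, Mmp7. A match is a description of the letters in the window and does not show that a factor binds there.

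The deposited values are log2 expression after RMA and carry no detection calls, so distance from background was judged from genes that liver is not known to express. For 71 olfactory, vomeronasal and trace amine receptor genes, the highest of the 4 group means had its 95th percentile at 5.02, and a gene at or below this value in its highest group was taken to lie near background. By this rule 35 of the 65 genes lay near background and 30 above it. Near background were 9 of 18 Mmp genes (Mmp1a, Mmp1b, Mmp3, Mmp8, Mmp9, Mmp10, Mmp11, Mmp16 and Mmp20), Timp4, 18 of 28 Adam genes and 7 of 15 Adamts genes. The 18 Adam genes were Adam1a, Adam1b, Adam2, Adam3, Adam5, Adam6a, Adam6b, Adam7, Adam12, Adam18, Adam21, Adam22, Adam24, Adam25, Adam26a, Adam28, Adam32 and Adam34, several of which are known from testis and sperm. The 7 Adamts genes were Adamts3, Adamts4, Adamts8, Adamts12, Adamts18, Adamts19 and Adamts20. Adam12 lay nearest below the threshold, with a highest group mean of 4.97. Adam4, at 5.46, and Mmp17, also at 5.46, lay nearest above it. With the 99th percentile (5.76) 43 genes lay below, and with the median over all genes (6.56) 52 did.

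**Figure D1:**
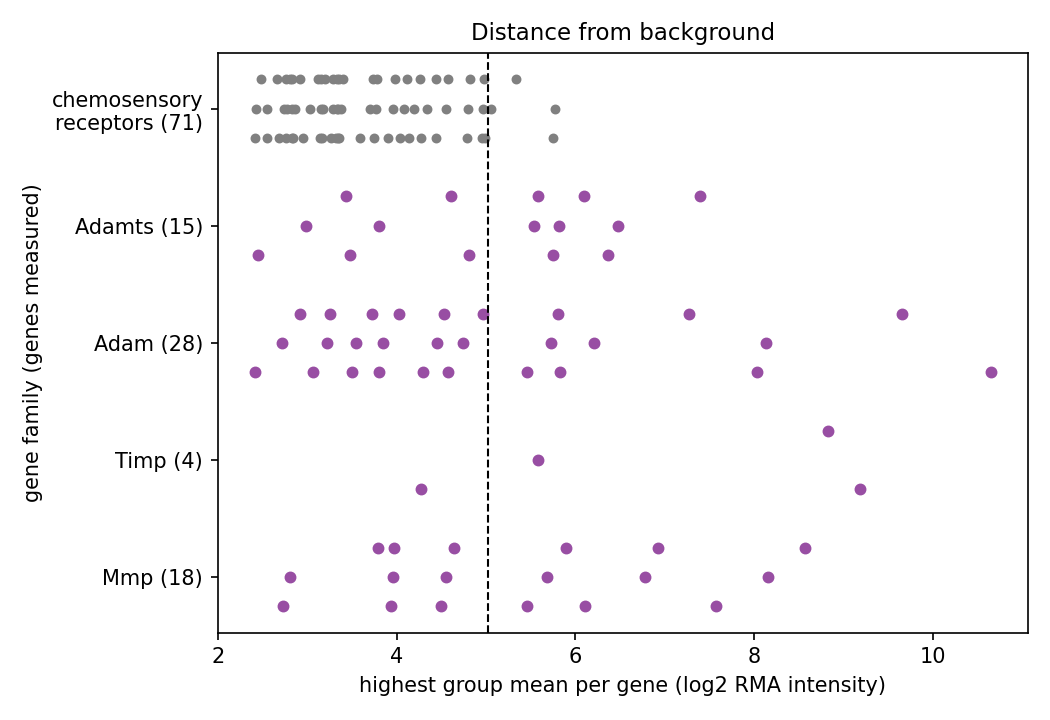
Highest of the 4 group means (horizontal axis, log2 RMA intensity) for each of the 65 genes by family and for 71 chemosensory receptor genes (grey), 1 point per gene; points are offset vertically only for visibility. The dashed line marks 5.02, and 35 of the 65 genes lie at or left of it.

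Array medians lay between 5.03 and 5.10. Phenobarbital control 6 stood apart: its 3′ probe sets of Gapdh exceeded its 5′ probe sets by 2.70 (log2), against -0.15 to 0.32 on the other 15 arrays, a gap read as a sign of RNA degradation. For some results that rest on the phenobarbital controls, values without it are therefore also given. Other such results, among them the counts of cell type markers, are given only with it. Hepatocyte markers averaged between 13.29 and 13.98 on every array, as the label liver implies.

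Tests were run in limma over all 18193 genes, and passing means a Benjamini-Hochberg adjusted p below 0.05. In Ctnnb1 tumours against phenobarbital controls 8 of the 65 genes passed (12.3%), where 12.0% of all genes passed. Of these 3 rose and 5 fell, against 6.07% and 5.97% of all genes. Without phenobarbital control 6 the count was 5 (7.69%, against 7.35% of all genes). In Ha-ras tumours against untreated controls 8 passed (12.3%), against 13.5% of all genes, with 5 that rose and 3 that fell, against 7.21% and 6.33%. Between the controls, phenobarbital against untreated, 1 passed (1.54%), against 0.214% of all genes. It rose, as did 0.132%, and 0 fell, against 0.0824%. The tumour changes differed for 2 genes (3.08%), against 5.43% of all genes, 1 in each direction, against 2.14% higher and 3.29% lower. Directly compared, 7 genes differed between the tumours (10.8%, against 15.1%), 5 of them higher and 2 lower in Ctnnb1 tumours, against 7.21% and 7.90%.

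The shares that passed in the tumour comparisons were thus close to or below those of all genes, with genes near background counted in. With dim genes left out, 13 of the 65 stayed in the test, and their shares lay above those of all genes tested (given below). A gene can stay through a single group where it reads high, so these shares are not read as a result about the family. Arrays of the groups did not overlap for 8 of the 65 genes in the Ctnnb1 comparison (12.3%, against 12.6% of all genes) and for 18 in the Ha-ras comparison (27.7%, against 34.8%). Between the controls this held for 10 genes (15.4%, against 18.8%) and between the tumours for 8 (12.3%, against 16.2%). The median change of the 65 genes was -0.03 in Ctnnb1 tumours and -0.05 in Ha-ras tumours, against -0.03 and -0.04 over all genes. Single members moved by far more than these medians, and 2 of the 65, Mmp13 and Timp2, passed in both tumour comparisons (3.08%, against 3.91% of all genes). In all, 15 genes passed in at least 1 of the 5 comparisons (23.1%, against 27.8% of all genes) and 50 in none.

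**Figure D2:**
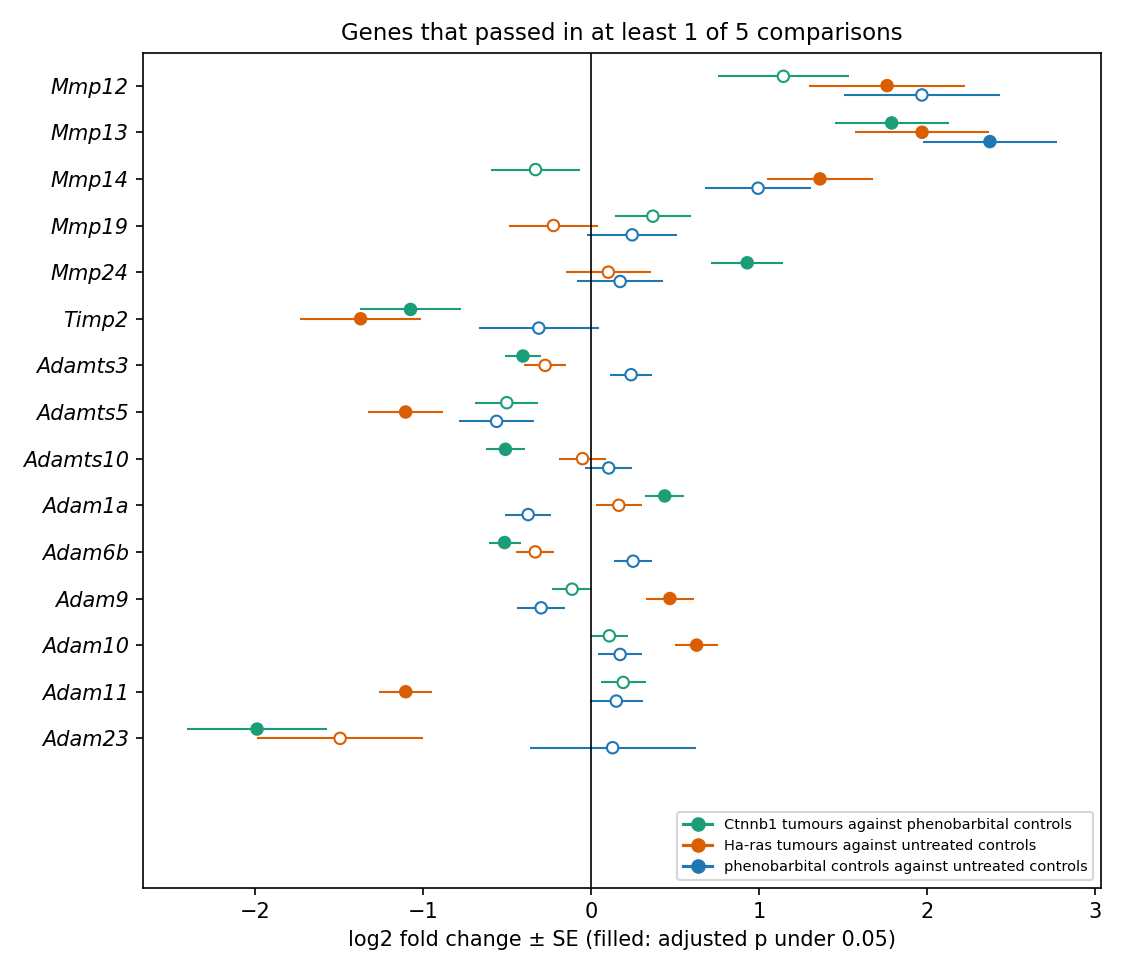
Log2 fold change with its standard error (horizontal axis) in 3 comparisons for the 15 genes that passed in at least 1 of the 5; filled points had an adjusted p under 0.05. Mmp19 passed only in the comparison of the tumours, which is not drawn. Mmp13 lies to the right of 0 in all 3 and Timp2 to the left of 0 in both tumour comparisons.

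Among the secreted collagenases, Mmp13 was higher in both tumour types than in their controls, and higher in phenobarbital than in untreated control liver. Mmp13, collagenase-3, cuts fibrillar collagen and is the main interstitial collagenase of rodents. On the log2 scale it read 4.09, 4.06 and 3.85 in the untreated controls, 6.13, 5.17 and 6.61 in the Ha-ras tumours and 7.08, 5.86 and 6.18 in phenobarbital controls 4 to 6. The Ctnnb1 tumours read 7.59, 8.0, 7.76, 8.25, 7.80, 8.69 and 9.04. Every untreated control lay below every other array, and every Ctnnb1 tumour above every other array. The Ha-ras tumours and phenobarbital controls overlapped.

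Mmp13 rose by 1.79 ± 0.34 (SE) in Ctnnb1 tumours against phenobarbital controls, a 3.45-fold change (limma adjusted p = 0.00330). In Ha-ras tumours against untreated controls it rose by 1.97 ± 0.40, or 3.92-fold (adjusted p = 0.00326). Both calls held when any 1 array was left out, and without phenobarbital control 6 the Ctnnb1 change was 1.69. Between the controls, phenobarbital against untreated, the change was 2.37 ± 0.40, or 5.18-fold (adjusted p = 0.0315), with the untreated arrays below the background threshold. That call was lost in 5 of 6 runs that left out 1 array, all but the run without phenobarbital control 5, with changes from 2.02 to 2.63 and an adjusted p of up to 0.108. The phenobarbital controls serve in both the first and the last of these comparisons, so these values are not independent of each other. Set against Ha-ras tumours, Ctnnb1 tumours were higher by 2.19 ± 0.34 (adjusted p = 0.000285). The other collagenases, Mmp8, Mmp1a and Mmp1b, lay near background and did not pass in any comparison.

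Mmp12, macrophage metalloelastase, which cuts elastin, took the same order of group means. It read 4.49, 4.68 and 4.21 in untreated controls, 6.75, 5.20 and 6.71 in Ha-ras tumours and 6.73, 6.02 and 6.54 in phenobarbital controls. In Ctnnb1 tumours it ran from 6.81 to 8.91 with a median of 7.53. The untreated controls were again below every other array, and the lowest Ctnnb1 tumour lay just above the highest phenobarbital control.

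Mmp12 rose by 1.76 ± 0.46 in Ha-ras tumours, or 3.39-fold (adjusted p = 0.0180), from untreated arrays below the background threshold. This call was lost in 4 of 6 runs, those without untreated control 1 or 3 or Ha-ras tumour 1 or 3 (adjusted p up to 0.0864). Neither the Ctnnb1 change of 1.14 ± 0.39 (adjusted p = 0.0683) nor the phenobarbital change of 1.97 ± 0.46 (adjusted p = 0.0891) passed. Ctnnb1 tumours exceeded Ha-ras tumours by 1.35 ± 0.39 (adjusted p = 0.0275), but by 0.84 without Ha-ras tumour 2 (adjusted p = 0.217). Mmp7, matrilysin, the remaining gene of the run above background, had means of 5.59 ± 0.33 (SD, n = 7) in Ctnnb1 tumours, 6.11 ± 0.16 (n = 3) in phenobarbital controls, 5.54 ± 0.07 (n = 3) in Ha-ras tumours and 6.02 ± 0.25 (n = 3) in untreated controls. Its changes of -0.52 in Ctnnb1 tumours (adjusted p = 0.0587) and -0.48 in Ha-ras tumours (adjusted p = 0.142) did not pass.

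Mmp12 is a macrophage product, so macrophage markers were read beside it. In these bulk samples fewer cells of a type and less RNA per cell cannot be told apart. Of 14 macrophage markers, all above background, 3 fell in Ctnnb1 tumours (median change -0.76) and 6 fell in Ha-ras tumours (median -1.06: Clec4f, Cd5l, Vsig4, Folr2, Timd4 and Cd163, several of them Kupffer cell genes). Of all genes 5.97% and 6.33% fell in these comparisons, with medians of -0.03 and -0.04. Between the controls 0 of 14 markers passed in limma (median 0.18, 1 at an unadjusted p under 0.05), against 0.214% of all genes. Set against Ha-ras tumours, Ctnnb1 tumours were higher for 3 of the 14 (Cd68, C1qa and C1qc, median 0.80) and lower for 0 by limma, with 6 at an unadjusted p under 0.05. Of all genes 7.21% were higher and 7.90% lower there. The mean of the 14 markers per array ran from 7.69 to 8.48 in Ctnnb1 tumours and 8.39 to 9.05 in phenobarbital controls. It ran from 6.58 to 8.54 in Ha-ras tumours and 8.21 to 9.0 in untreated controls. The markers that passed against controls were thus lower in tumours, where Mmp12 and Mmp13 read higher. Between the tumours the markers that passed and both enzymes were higher in Ctnnb1 tumours. Whether the amount of macrophages has a part in the values of Mmp12 and Mmp13 was not tested.

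Among the membrane-type enzymes, Mmp14 rose in Ha-ras tumours and Mmp24 in Ctnnb1 tumours. Mmp14, MT1-MMP, cuts collagen at the cell surface and activates the precursor of Mmp2. It read 7.12, 7.48 and 7.01 in untreated controls, 8.11, 8.97 and 8.63 in Ha-ras tumours and 8.10, 8.06 and 8.43 in phenobarbital controls. In Ctnnb1 tumours it ran from 6.92 to 8.5 with a median of 8.05. The untreated controls were below every Ha-ras tumour and every phenobarbital control, and the Ctnnb1 tumours spread over both control groups.

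Mmp14 rose by 1.36 ± 0.31 in Ha-ras tumours, or 2.57-fold (adjusted p = 0.00796), a call kept in every run that left out 1 array. Its remaining 2 probe sets also rose there, by 0.91 (adjusted p = 0.0102) and 1.16 (adjusted p = 0.00101). In Ctnnb1 tumours against phenobarbital controls the change was -0.33 ± 0.27 (adjusted p = 0.470). The 2 tumour changes differed by -1.69 ± 0.41 (adjusted p = 0.0234), a call lost without phenobarbital control 6, untreated control 1 or 3, or Ha-ras tumour 2 (adjusted p up to 0.0712). The control groups enter this difference: Mmp14 was 0.99 ± 0.31 higher in phenobarbital than in untreated controls, which did not pass (adjusted p = 0.189).

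Mmp24, MT5-MMP, a membrane-anchored enzyme best known from nervous tissue, was high in Ctnnb1 tumours alone among the 4 groups. There it ran from 6.05 to 7.22 with a median of 6.85. It read 5.82, 5.77 and 5.96 in phenobarbital controls, 6.03, 5.84 and 5.46 in Ha-ras tumours and 5.68, 5.60 and 5.75 in untreated controls. The lowest Ctnnb1 tumour stood just above the highest Ha-ras tumour.

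Mmp24 rose by 0.93 ± 0.21 against phenobarbital controls (1.90-fold, adjusted p = 0.0112), or by 0.99 without phenobarbital control 6. It exceeded Ha-ras tumours by 1.0 ± 0.21 (adjusted p = 0.00424). Both calls were kept in every run that left out 1 array. In Ha-ras tumours the change was 0.10, and the difference of 0.83 ± 0.33 between the tumour changes did not pass (adjusted p = 0.188). The remaining probe sets of Mmp24 did not pass in Ctnnb1 tumours (0.36, and 0.01 for 1 near background). Of the other membrane-type enzymes measured, Mmp17 did not pass in any comparison and Mmp16 lay near background.

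The gelatinases gave no call. Mmp2, gelatinase A, a stellate cell product, had means of 5.12 ± 0.12 (SD, n = 7) in Ctnnb1 tumours, 5.63 ± 0.72 (n = 3) in phenobarbital controls, 5.18 ± 0.38 (n = 3) in Ha-ras tumours and 5.89 ± 0.58 (n = 3) in untreated controls. Its changes of -0.51 (adjusted p = 0.222) and -0.71 (adjusted p = 0.154) did not pass. Mmp9, gelatinase B, known from neutrophils and macrophages, lay near background, with group means from 4.22 to 4.64. Neutrophil markers, 7 of them measured, gave 0 calls in limma in both tumour comparisons (0 also at an unadjusted p under 0.05). Of all genes 12.0% and 13.5% passed there. The mean of the neutrophil markers per array was highest in Ctnnb1 tumours 1 (6.84) and 2 (6.13), against 4.99 to 5.46 on the other arrays.

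Mmp19, which cuts basement membrane proteins, passed in the comparison of the tumours. It was higher in Ctnnb1 than in Ha-ras tumours by 0.84 ± 0.23 (adjusted p = 0.0183), with 6.56 to 7.23 (median 6.95) against 5.78, 5.95 and 6.55. Without Ha-ras tumour 1 or 2 this call was lost. The stromelysins Mmp3, Mmp10 and Mmp11 lay near background and did not pass in any comparison.

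Of the TIMPs, Timp2 was lower in both tumour types and the others did not pass. Timp2 blocks most MMPs and, at low amounts, takes part with Mmp14 in the activation of Mmp2. It read 8.36, 9.02 and 9.10 in untreated controls, 7.24, 6.94 and 8.18 in Ha-ras tumours and 8.44, 7.93 and 9.16 in phenobarbital controls. In Ctnnb1 tumours it ran from 6.67 to 7.98 with a median of 7.44. The highest Ctnnb1 tumour lay above the lowest phenobarbital control, so these groups overlapped, whereas Ha-ras tumours and untreated controls did not.

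Timp2 fell by 1.07 ± 0.30 on the log2 scale in Ctnnb1 tumours, to a level 2.10-fold lower (adjusted p = 0.0309). In Ha-ras tumours it fell by 1.37 ± 0.36, or 2.58-fold (adjusted p = 0.0176). The Ctnnb1 call was lost without phenobarbital control 4 or 6, with a change of -0.75 and an adjusted p of 0.197 without control 6. The Ha-ras call was lost without untreated control 2 or 3 or Ha-ras tumour 1 or 2 (adjusted p up to 0.0888). None of the remaining 5 probe sets of Timp2 passed in either comparison. The next brightest by its highest group mean gave -0.16 (adjusted p = 0.720) and -0.78 (adjusted p = 0.0783), and the 1 after it -1.01 (adjusted p = 0.0565) and -1.20 (adjusted p = 0.0550), in Ctnnb1 and Ha-ras tumours.

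Timp1, the soluble TIMP known from stellate cells in injured liver, read 6.06, 4.73 and 5.97 in Ha-ras tumours and 4.42, 4.86 and 4.97 in untreated controls. Ha-ras tumour 2 lay below both of the higher controls, so the groups overlapped, and the change of 0.83 ± 0.33 did not pass (adjusted p = 0.113). In Ctnnb1 tumours 6 and 7 it read 5.66 and 5.58, against 4.70 to 5.04 in the other 5 and 4.60 to 4.99 in phenobarbital controls (change 0.27, adjusted p = 0.593). Timp3, which binds to the matrix and also blocks Adam17, had means of 8.87 ± 0.34 (SD, n = 7), 8.69 ± 0.33 (n = 3), 9.19 ± 0.46 (n = 3) and 8.71 ± 0.20 (n = 3) in Ctnnb1 tumours, phenobarbital controls, Ha-ras tumours and untreated controls. Its changes of 0.19 and 0.48 did not pass (adjusted p = 0.644 and 0.266). Timp4 lay near background, with group means from 4.17 to 4.27.

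**Figure D3:**
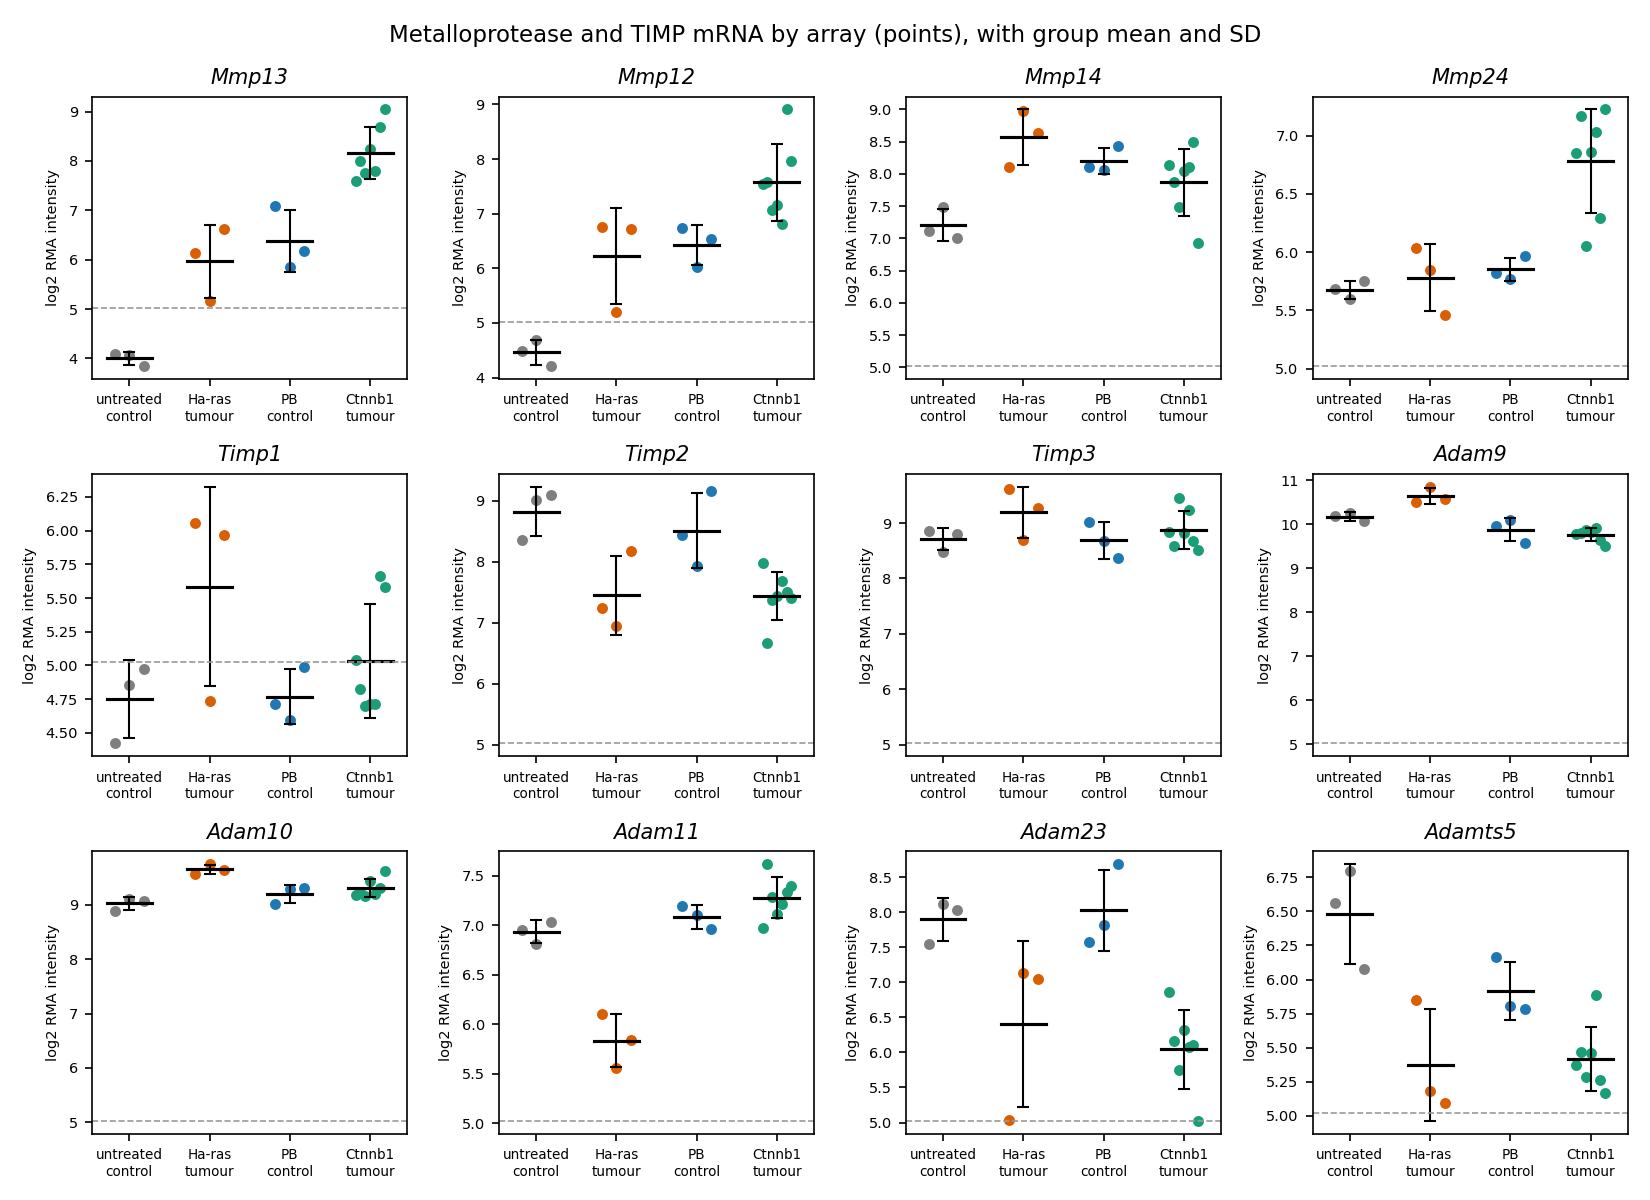
Log2 RMA intensity of 12 genes (vertical axis, scaled per gene) on each array (points) in untreated controls (n = 3), Ha-ras tumours (n = 3), phenobarbital (PB) controls (n = 3) and Ctnnb1 tumours (n = 7), with the group mean and SD as bars and the background threshold of 5.02 as a dashed line. Mmp13 and Mmp12 lie under the line in all 3 untreated controls, and Adam11 is lowest in the 3 Ha-ras tumours.

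Stellate cells and fibroblasts are known sources of TIMPs and of Mmp2, and all 14 of their markers were above background. Of these 8 fell in Ctnnb1 tumours (median change -0.69) and 7 fell in Ha-ras tumours (median -0.60). Of all genes 5.97% and 6.33% fell there, with medians of -0.03 and -0.04. Between the controls 0 of the 14 passed in limma, against 0.214% of all genes, and 0 of the 14 had an unadjusted p under 0.05. The mean of the 14 markers per array ran from 6.71 to 7.2 in Ctnnb1 tumours and 6.76 to 7.14 in Ha-ras tumours. These lay below the 7.51 to 7.84 of phenobarbital controls and the 7.64 to 7.81 of untreated controls. Timp2 was low in the same tumours. Within the 7 Ctnnb1 tumours, Timp2 and this mean had Pearson's r = 0.82 (exact permutation p = 0.0119, 0.0714 after Benjamini-Hochberg adjustment over the 6 relations computed) and Spearman's rho = 0.82 (exact permutation p = 0.0341, adjusted 0.205). Without the 2 tumours farthest from the median of the markers, r was 0.89 over 5 tumours. Neither adjusted value passed.

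The remaining 5 relations within the Ctnnb1 tumours were weaker, by the same exact permutation test. The mean of the macrophage markers had r = 0.26 with Mmp12 (p = 0.577) and r = -0.20 with Mmp13 (p = 0.679). The stellate cell mean had r = 0.48 with Mmp14 (p = 0.223) and r = -0.01 with Adamts5 (p = 0.891). Mmp13 and Mmp12 had r = 0.67 (p = 0.133), which was -0.06 without the 2 farthest tumours and so rests on those. Whether the amount of stellate cells has a part in the values of Timp2, Mmp14 and Adamts5 was not tested.

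**Figure D4:**
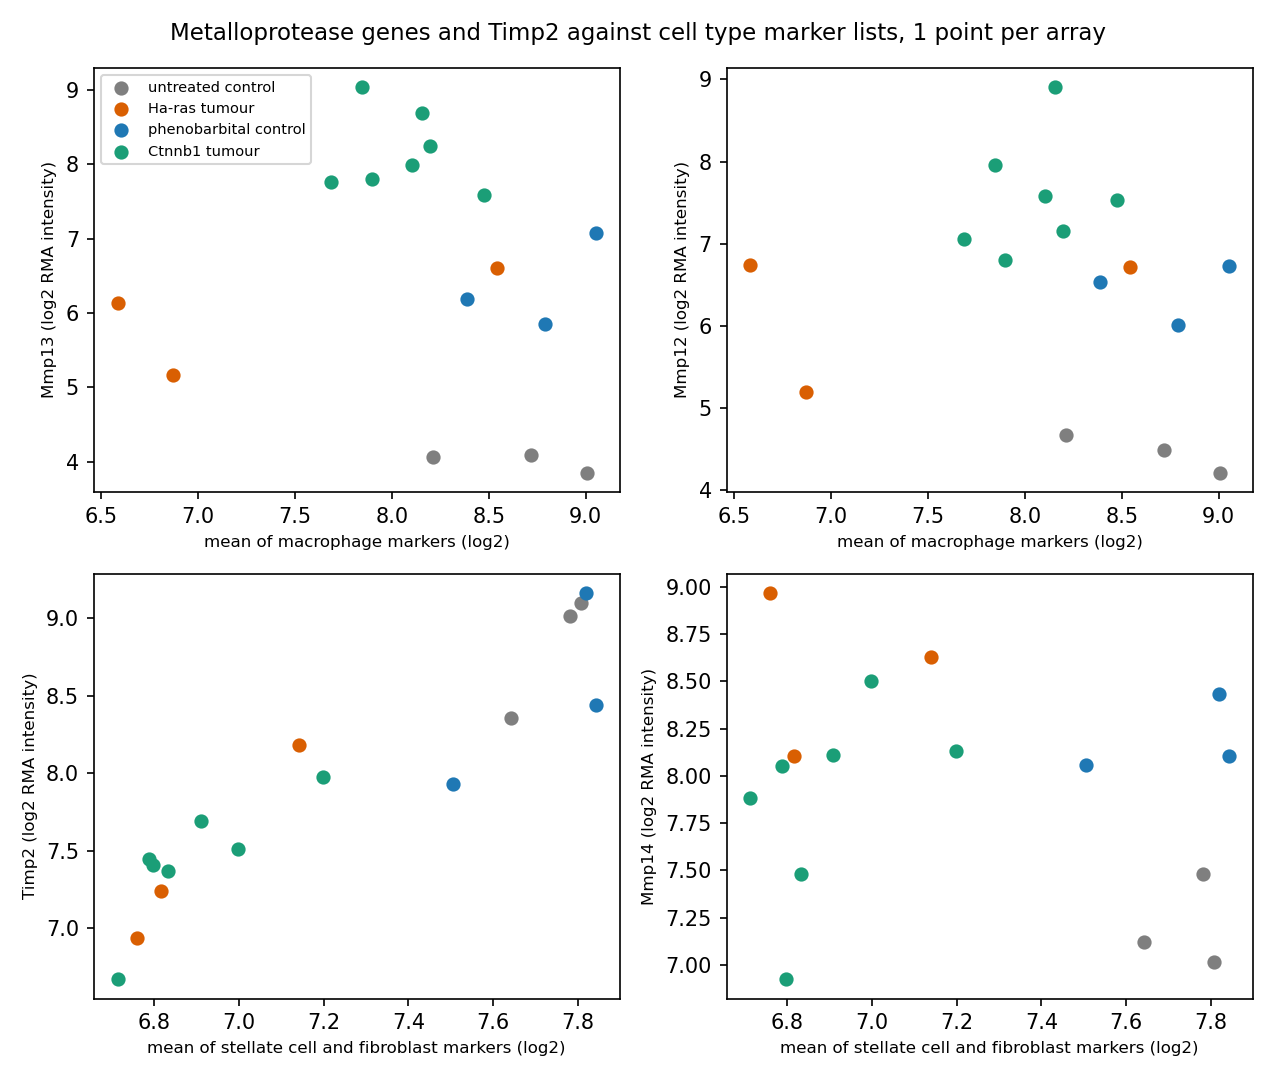
Mmp13 and Mmp12 against the mean of 14 macrophage markers, and Timp2 and Mmp14 against the mean of 14 stellate cell and fibroblast markers (all log2 RMA intensity), 1 point per array, coloured by group. In the Timp2 panel every tumour lies left of every control, at 6.71 to 7.2 against 7.51 to 7.84, and no relation was computed across the groups.

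Among the ADAMs of broad expression, Adam10 and Adam9 rose in Ha-ras tumours and none passed in Ctnnb1 tumours against their controls. Adam10, which releases Notch, cadherins and EGF receptor ligands, read 9.58, 9.75 and 9.65 in Ha-ras tumours and 8.90, 9.12 and 9.08 in untreated controls, with no overlap. It rose by 0.63 ± 0.13 (1.55-fold, adjusted p = 0.00365), and the call held without any 1 array. Its 3 remaining probe sets did not pass there. In Ctnnb1 tumours it ran from 9.17 to 9.62 (median 9.24), beside 9.01, 9.29 and 9.31 in phenobarbital controls, a change of 0.11 (adjusted p = 0.575). Ctnnb1 tumours were lower than Ha-ras tumours by 0.35 (adjusted p = 0.0436), which was lost in 8 of 10 runs that left out 1 array, and the difference of -0.52 ± 0.17 between the tumour changes did not pass (adjusted p = 0.0965).

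Adam9, a broadly expressed ADAM, read 10.52, 10.85 and 10.57 in Ha-ras tumours, above every other array, and 10.20, 10.26 and 10.07 in untreated controls. The rise of 0.47 ± 0.14 (1.38-fold, adjusted p = 0.0379) was lost in 5 of 6 runs, kept only without Ha-ras tumour 1. Ctnnb1 tumours, at 9.52 to 9.93, were lower than Ha-ras tumours by 0.88 ± 0.12 (adjusted p = 9.17e-05), a call kept in every run. The tumour changes differed by -0.58 ± 0.19, which did not pass (adjusted p = 0.0878).

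Adam17, the enzyme that releases TNF and several EGF receptor ligands, did not pass in any comparison. Its group means were 8.13 ± 0.16 (SD, n = 7), 8.08 ± 0.24 (n = 3), 8.05 ± 0.17 (n = 3) and 7.85 ± 0.10 (n = 3) in Ctnnb1 tumours, phenobarbital controls, Ha-ras tumours and untreated controls. Adam15 lay between 5.92 and 6.41 on all arrays and did not pass in any comparison. Adam19 gave 0.55 in Ha-ras tumours, which did not pass (adjusted p = 0.0593). Its lowest Ha-ras tumour, at 5.6465, lay just above its highest untreated control, at 5.635. Arrays of these groups did not overlap for 34.8% of all genes.

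Adam11 and Adam23 belong to a branch of the family that lacks the catalytic motif. These proteins are best known as ligands and receptors in the nervous system. Adam11 was low in Ha-ras tumours alone, at 6.10, 5.56 and 5.84. It read 6.95, 6.81 and 7.04 in untreated controls, 7.2, 7.10 and 6.96 in phenobarbital controls and 6.97 to 7.61 (median 7.29) in Ctnnb1 tumours. No array of another group fell to the level of the Ha-ras tumours.

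Adam11 fell by 1.10 ± 0.16 on the log2 scale in Ha-ras tumours, or 2.15-fold (adjusted p = 0.000198). In Ctnnb1 tumours the change was 0.19 ± 0.13 (adjusted p = 0.393), and the 2 tumour changes differed by 1.29 ± 0.21 (adjusted p = 0.00127). The direct difference between the tumours was 1.44 ± 0.13 (adjusted p = 1.69e-06). These 3 calls held when any 1 array of the groups compared was left out. Without phenobarbital control 6 the difference between the changes was 1.23. The remaining, dimmer probe set of Adam11 gave -0.28 in Ha-ras tumours (adjusted p = 0.388).

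Adam23 was lower in Ctnnb1 tumours, at 5.02 to 6.86 with a median of 6.11, than in phenobarbital controls, at 7.58, 7.82 and 8.69. In Ha-ras tumours it read 5.04, 7.14 and 7.05, and in untreated controls 7.56, 8.12 and 8.03. All tumours of both types thus lay below all 6 controls. Adam23 fell by 1.99 ± 0.42 in Ctnnb1 tumours, or 3.96-fold (adjusted p = 0.00630). Without phenobarbital control 6 the change was -1.66 (adjusted p = 0.0471). The Ha-ras change of -1.49 ± 0.49 did not pass (adjusted p = 0.0575), and the difference between the tumour changes was -0.49 ± 0.65 (adjusted p = 0.757). Of its 2 dimmer probe sets, 1 gave -0.66 in Ctnnb1 tumours (adjusted p = 0.0655) and -0.90 in Ha-ras tumours (adjusted p = 0.0329). The other, near background, gave -0.40 (adjusted p = 0.0258) and -0.31 (adjusted p = 0.142).

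Among the ADAMTS aggrecanases, Adamts5, which cuts aggrecan and versican, was lower in Ha-ras tumours. It read 5.85, 5.19 and 5.09 there and 6.56, 6.79 and 6.08 in untreated controls, with no overlap. The fall of 1.10 ± 0.22 on the log2 scale, or 2.15-fold (adjusted p = 0.00309), held without any 1 array. In Ctnnb1 tumours it ran from 5.17 to 5.89 (median 5.38), overlapping phenobarbital controls at 6.16, 5.80 and 5.78, and the change of -0.50 ± 0.19 did not pass (adjusted p = 0.0951). Adamts1, an early-response aggrecanase and versicanase, ran from 6.80 to 8.14 (median 7.63) in Ctnnb1 tumours and read 7.35, 6.74 and 6.60 in phenobarbital controls. Its change of 0.50 ± 0.25 did not pass (adjusted p = 0.203).

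Adamts10, which is known for its part in fibrillin microfibrils, fell by 0.51 ± 0.12 in Ctnnb1 tumours (1.42-fold, adjusted p = 0.0111). It ran from 5.33 to 5.79 there and read 6.09, 5.91 and 6.30 in phenobarbital controls. Leaving out phenobarbital control 6 ended this call (adjusted p = 0.0697). The 3 further genes that passed in Ctnnb1 tumours lay near background in all groups, at values that the chemosensory receptor genes also gave: Adam6b (-0.51, adjusted p = 0.00285), Adamts3 (-0.40, adjusted p = 0.0218) and Adam1a (0.44, adjusted p = 0.0232). Leaving out phenobarbital control 6 ended the call of Adam1a (adjusted p = 0.127), and leaving out control 4 that of Adamts3 (adjusted p = 0.0823).

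Proteins that switch metalloproteases on, hold them back or carry them to the surface were read as a list of 29 genes, 28 of them measured. In Ctnnb1 tumours 3 rose and 4 fell, in Ha-ras tumours 3 rose and 2 fell. Of all genes 6.07% rose and 5.97% fell in Ctnnb1 tumours, and 7.21% and 6.33% in Ha-ras tumours. Between the controls 0 of the 28 passed in limma (5 at an unadjusted p under 0.05), against 0.214% of all genes. The median change of the 28 was -0.11 in Ctnnb1 and 0.08 in Ha-ras tumours, against -0.03 and -0.04 over all genes.

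The largest fall was that of Reck, a membrane-anchored inhibitor of Mmp2, Mmp9 and Mmp14. Its mean was 5.06 ± 0.35 (SD, n = 7) in Ctnnb1 tumours and 7.52 ± 0.14 (n = 3) in phenobarbital controls, a change of -2.46 ± 0.22 (adjusted p = 2.03e-05). In Ha-ras tumours it was 6.30 ± 0.43 (n = 3) beside 7.03 ± 0.38 (n = 3) in untreated controls, and the difference between the changes was -1.74 ± 0.34 (adjusted p = 0.00563). Adamtsl4, an ADAMTS-like protein without a protease domain, rose by 2.61 ± 0.31 in Ctnnb1 tumours (adjusted p = 0.000140), and the change exceeded that in Ha-ras tumours by 2.57 ± 0.48 (adjusted p = 0.00409). Tspan33, a tetraspanin partner of Adam10, fell by 1.32 ± 0.27 in Ctnnb1 tumours (adjusted p = 0.00518) and differed between the tumour changes by -2.12 ± 0.42 (adjusted p = 0.00597). Plat, tissue plasminogen activator, rose by 2.37 ± 0.64 in Ctnnb1 tumours (adjusted p = 0.0252), lost without phenobarbital control 4 or 5.

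In Ha-ras tumours Rhbdf1, or iRhom1, a partner of Adam17 in transport, rose by 1.90 ± 0.25 (adjusted p = 0.000100). It also rose in Ctnnb1 tumours, by 0.85 ± 0.21 (adjusted p = 0.0173), and the difference of -1.05 ± 0.33 between the changes did not pass (adjusted p = 0.0801). Tspan15, another tetraspanin partner of Adam10, rose by 1.23 ± 0.20 (adjusted p = 0.000529). Its change of 0.30 in Ctnnb1 tumours did not pass (adjusted p = 0.271), and the changes differed by -0.93 ± 0.26 (adjusted p = 0.0461), which was lost in 11 of 16 runs that left out 1 array. Lrp1, an uptake receptor that clears several metalloproteases, fell by 0.77 (adjusted p = 0.0170), which was lost in 4 of 6 runs that left out 1 array.

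Of 23 proteins known to be shed from the cell surface, 21 were measured. In Ctnnb1 tumours 2 rose and 3 fell, and in Ha-ras tumours 4 rose and 0 fell by limma's test. Of all genes 6.07% rose and 5.97% fell in Ctnnb1 tumours, and 7.21% and 6.33% in Ha-ras tumours. Of the listed genes that passed in Ctnnb1 tumours, Il6ra, a receptor chain of interleukin 6, changed most. It fell by 1.03 ± 0.29 (adjusted p = 0.0312), lost in 5 of 10 runs that left out 1 array. Sdc1, syndecan-1, a cell surface proteoglycan, fell by 0.93 ± 0.17 there (adjusted p = 0.00289), kept in every such run. The third gene that fell was Jag1, a Notch ligand (-0.60, adjusted p = 0.0287). Tgfa, an EGF receptor ligand released by Adam17, rose in Ha-ras tumours by 1.04 ± 0.18 (adjusted p = 0.000923), and in Ctnnb1 tumours by 0.63 ± 0.15 (adjusted p = 0.0133), the latter lost without phenobarbital control 4 or 5. Btc, a ligand released by Adam10, rose by 1.34 ± 0.28 in Ha-ras tumours (adjusted p = 0.00390) and by 0.93 ± 0.24 in Ctnnb1 tumours (adjusted p = 0.0185), the latter lost without phenobarbital control 5. Cdh1, E-cadherin, a substrate of Adam10, rose by 3.38 ± 0.72 in Ha-ras tumours (adjusted p = 0.00452), from 7.73 ± 1.24 (SD, n = 3) to 11.11 ± 0.23 (n = 3). It stood at 7.93 ± 1.16 (n = 7) in Ctnnb1 tumours and 9.61 ± 0.57 (n = 3) in phenobarbital controls. This change of -1.67 ± 0.61 did not pass (adjusted p = 0.0860), and the tumour changes differed by -5.05 ± 0.94 (adjusted p = 0.00412).

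All 26 matrix substrates listed were measured. In Ctnnb1 tumours 3 rose and 5 fell, in Ha-ras tumours 3 rose and 3 fell. Of all genes 6.07% rose and 5.97% fell in Ctnnb1 tumours, and 7.21% and 6.33% in Ha-ras tumours. Between the controls 0 of the 26 passed in limma, against 0.214% of all genes, and 0 of the 26 had an unadjusted p under 0.05. Nid1, nidogen, a basement membrane linker, rose by 1.98 ± 0.25 in Ctnnb1 tumours (adjusted p = 0.000201) and by 3.42 ± 0.30 in Ha-ras tumours (adjusted p = 1.89e-06). These changes differed by -1.44 ± 0.39 (adjusted p = 0.0413), which was lost in 12 of 16 runs that left out 1 array. The direct difference of Ctnnb1 from Ha-ras tumours was -1.38 ± 0.25 (adjusted p = 0.00118). Col4a1, basement membrane collagen, rose by 1.55 ± 0.25 in Ha-ras tumours (adjusted p = 0.000585) and by 0.97 ± 0.21 in Ctnnb1 tumours (adjusted p = 0.00801), and the difference between the changes did not pass (adjusted p = 0.380). The third gene that rose in each was Col4a2. Decorin (Dcn), a small proteoglycan of fibrillar matrix, fell by 2.04 ± 0.37 in Ctnnb1 tumours (adjusted p = 0.00240) and by 2.21 ± 0.43 in Ha-ras tumours (adjusted p = 0.00253). Lumican (Lum), of the same class, fell by 1.29 ± 0.27 and 1.78 ± 0.32, and biglycan (Bgn), also of that class, by 1.41 ± 0.24 and 1.18 ± 0.29. Vwf, von Willebrand factor, and Col6a1, a collagen VI chain, fell in Ctnnb1 tumours as well (-1.10, adjusted p = 0.0387, and -0.91, adjusted p = 0.0323). Other basement membrane genes of the list, among them Hspg2, Lamb1 and Lamc1, did not pass in either tumour comparison. Markers of stellate cells and fibroblasts also read lower in these tumours, and their part in these falls was not tested.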

How the data were processed

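RNA of 16 mouse liver samples was read on Affymetrix arrays, 1 per sample. The authors deposited log2 values from RMA, 1 per probe set, computed in R 2.14.1 per the submitters' processing notes. The version of RMA is not given in the sources used here. The 45101 probe sets were used as deposited, without further scaling. The platform annotation gave 34945 of them 1 gene symbol, 932 several and 9160 none, and 64 were array controls. Symbols were checked by Entrez identifier against RefSeq (GRCm38.p6), which matched 34741 and renamed 0. For each gene the probe set that read highest on average was kept, and all 65 genes described matched. Arrays give no read depth, and their number sets the precision.

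Groups were taken from the sample titles. A linear model with a mean for each group was fitted to all 16 arrays together in limma 3.58.1 (lmFit, then eBayes), under R 4.3.3 with statmod 1.5.0 and the data.table package, version 1.17.8, with Benjamini-Hochberg adjustment over 18193 genes and a threshold of 0.05, for 5 comparisons: each tumour type against its controls, the difference between these changes, the 2 control groups, and the 2 tumour types. "Rose" and "fell" are used only of genes that passed. The fit was tested on simulated data. RMA shrinks low signals toward each other, so changes that start near background are understated.

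The genes and gene lists were chosen with earlier results of these data known. Genes that passed in a comparison were described in full, the always described genes were Timp1 to Timp4, Mmp2, Mmp9, Mmp14, Adam10 and Adam17, and up to 4 passing genes with the largest change were named per pathway list and tumour comparison. Jag1, Col4a2, Vwf, Col6a1, the smaller Ctnnb1 changes of Rhbdf1 and Col4a1, and the marker genes named were chosen after their values were seen. Endothelial, lymphocyte, bile duct and hepatocyte markers were also listed. Replicate numbers occur in tumours and controls, but same-numbered arrays did not deviate together in every pair. Correlations were 0.13, 0.09 and -0.12 under phenobarbital, the last with phenobarbital control 6, and 0.03, 0.40 and 0.24 without it. The arrays were not taken as pairs, although these values do not show that they are unpaired. Numbers 1 to 3 of the 2 tumour groups were not taken as pairs either (correlations from -0.20 to 0.05). Alternatives were other choices of probe set, dim genes left out, other scaling, array weights, only the arrays compared, a replicate block, and each array left out. The trend and robust settings of eBayes were also tried. Leaving out 3 arrays together and a block on the tumours' numbers were added after seeing the data.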

Additional observations from a re-analysis of the deposited data

Results flagged for a closer look

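In 3 of 32 genes checked, the 30 above background with Mmp9 and Timp4, 1 of the 7 Ctnnb1 tumours stood far above the rest. About 1 in 20 groups would be marked in this way by chance. Adam8, an ADAM of leukocytes, read 6.78 in Ctnnb1 tumour 6, against 5.91 in the next highest. Mmp7 read 6.26 in Ctnnb1 tumour 7, against 5.67 in the next highest. Adamts5 read 5.89 in Ctnnb1 tumour 5, against 5.47 in the next highest.

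For 2 genes the change in Ctnnb1 tumours and the change in Ha-ras tumours differed by limma's interaction contrast. Adam11 differed by 1.29 ± 0.21 (adjusted p = 0.00127). Mmp14 differed by -1.69 ± 0.41 (adjusted p = 0.0234), with the calls and arrays given above.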

How the results depend on the processing

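Of the 26 calls on the genes described, 14 were kept whichever array was left out. The number of the 65 genes that passed then ran from 5 to 10 in Ctnnb1 tumours, 6 to 8 in Ha-ras tumours, 1 to 3 in the difference between the changes, 0 to 1 between the controls and 6 to 9 between the tumours. Over all genes the counts ran from 1337 to 2219 (2192 with every array), 1698 to 2273 (2462), 648 to 1177 (988), 3 to 68 (39) and 1745 to 2883 (2750). Quantile normalization, median centring and a random replicate block (consensus correlation 0.0465) lost none of the 26 calls.

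The fixed replicate block left 4 calls in Ctnnb1 tumours, 2 of them shared with the 8 above, and 804 genes in all against 2192. The calls it lost were Adam1a, Adam6b, Adamts10, Adamts3, Mmp24 and Timp2 (adjusted p from 0.0507 to 0.273), and it kept the calls in Ha-ras tumours and in the difference. Set within each treatment, it gives no value between the controls, which share no number, or between the tumours. With the numbers 1 to 3 that the tumours share as a replicate block, added after seeing the data, 7 passed between the tumours (10.8%). Over all genes 12.4% passed, and 5 of these 7 were among the 7 above. Mmp12 (1.17, adjusted p = 0.116) and Mmp19 (0.84, adjusted p = 0.110) were lost. With dim genes left out, 13 of the 65 stayed in the test. Of these 5 passed in Ctnnb1 tumours (38.5%, against 22.8% of 9097 genes) and 8 in Ha-ras tumours (61.5%, against 23.7%). Between the tumours 7 passed (53.8%, against 27.5%), in the difference 2 (15.4%, against 11.1%) and between the controls 1 (7.69%, against 0.583%). Because a gene can stay through a single group where it reads high, no conclusion is drawn from these shares. The 5 in Ctnnb1 tumours were 4 of the 8 above and Mmp12 (1.14, adjusted p = 0.0489). The other 4 of the 8 (Adam1a, Adam6b, Adamts10 and Adamts3) were among those left out. Adam23 then passed in Ha-ras tumours (adjusted p = 0.0406). Leaving out 3 arrays at once (phenobarbital control 6 with Ctnnb1 tumours 6 and 7), chosen after seeing the data, gave 4 in Ctnnb1 tumours (1383 genes in all) and 14 between the tumours (21.5%, against 20.5% of all genes, 3736), and Adam23 did not pass (-1.47, adjusted p = 0.0719). Array weights gave 7 in Ctnnb1 tumours (2153 genes in all), 6 of them among the 8 above. They gave 12 in Ha-ras tumours (3775 genes in all), 3 in the difference (1547), 2 between the controls (242) and 11 between the tumours (3757). With only the arrays compared, 7 of the 8 calls in Ctnnb1 tumours (1492 genes in all) and 5 of the 7 between the tumours (2789) were kept. Between the controls 2 then passed (3.08%, against 0.104% of all genes). With the trend and robust settings of eBayes, 6 of the 7 calls between the tumours were kept (2665 genes in all). The cause was not tested.

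Averaging all probe sets lost Mmp24 (0.43, adjusted p = 0.0570) and Timp2 (-0.40, adjusted p = 0.0750) in Ctnnb1 tumours and Adam10 in Ha-ras tumours (adjusted p = 0.0715). Between the tumours it kept 6 of the 7 calls. With the probe set of highest variance, 24 of the 26 calls were kept. Other probe sets taken singly kept 8 of 35 calls, lost 23 and reversed 4: Timp2 at 0.15 in Ctnnb1 and 0.13 in Ha-ras tumours, and Adam10 at -0.046 in Ha-ras tumours and 0.10 between the tumours, all of them near background.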

Other observations

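Markers of further cell types were read as values. Of all genes 6.07% rose and 5.97% fell in Ctnnb1 tumours, and 7.21% and 6.33% in Ha-ras tumours, with median changes of -0.03 and -0.04. Of 13 endothelial markers, all above background, 1 rose and 3 fell in Ctnnb1 tumours (median change -0.74), and 1, Emcn, rose by 2.02 in Ha-ras tumours (median -0.21). An unadjusted p under 0.05 in limma was reached by 9 and 8 of them. Of 5 bile duct markers measured, 3 of them above background, 1 fell in Ctnnb1 tumours by limma (4 at an unadjusted p under 0.05). Of 9 hepatocyte markers, 2 fell in Ctnnb1 tumours (Tat and Cps1) and 0 of them passed in Ha-ras tumours by limma (2 at an unadjusted p under 0.05). Of the 9 lymphocyte markers measured, 5 lay above background. In limma 0 of the 9 passed in either tumour comparison, with 2 at an unadjusted p under 0.05 in Ctnnb1 and 0 in Ha-ras tumours.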
